A study of Mus musculus with 6 samples.

Results

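The gene set described here is the Wnt signalling module: 52 genes for Wnt ligands, their receptors, the secreted antagonists, the potentiators, the secretion machinery and the intracellular effectors. The members are a list of gene symbols, matched through the GENCODE M21 annotation, and all 52 were found among the 54752 genes listed. They were measured by bulk RNA sequencing in the 3T3-L1 line, which comes from mouse embryo fibroblasts and can turn into fat cells in culture. There were 3 libraries of adipocytes and 3 of undifferentiated preadipocytes. The labels give both groups the strain C57BL/6J, embryo as the tissue, no treatment and 1 shared medium description that names BCS, DMI and FBS, without the day of harvest. DMI is not spelled out there, and no transgene or knockout is given for either group. The source name reads adipocyte for all 6 libraries, so the groups rest on the sample titles and the cell type label. Both states are of 1 cell line, and whether the replicates came from separate cultures is not stated; p-values therefore measure the spread between these libraries, which may be technical.

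Wnt proteins are lipid-modified secreted ligands that bind Frizzled receptors. With the co-receptors Lrp5 and Lrp6 they shield β-catenin from a destruction complex built on Axin, Apc and Gsk3b, and β-catenin then switches on genes through TCF/LEF transcription factors. Other branches act through Ror and Ryk receptors without β-catenin. In preadipocytes, β-catenin signalling is known as a brake on fat cell formation, and Wnt6, Wnt10a and Wnt10b are the ligands best known for it in this cell line.

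Total expected counts were between 22496486 and 26314076 per library. Markers fitted the labels: the summed level of 9 adipocyte genes was 29805 to 34253 TPM in the adipocyte libraries, against 529 to 555 TPM in the preadipocyte libraries, while 6 preadipocyte or fibroblast genes summed to 442 to 528 TPM in adipocytes and 11036 to 11852 TPM in preadipocytes. TPM (a transcript level relative to its library) divides by gene length and is used here to set genes side by side. In bulk RNA, fewer cells of a type and less RNA per cell cannot be told apart, and the part of remaining preadipocytes in the levels below was not tested. Leukocyte, endothelial, osteoblast and epithelial lists each summed to at most 2.30 TPM in every library, with the macrophage gene Adgre1 at 0. The chondrocyte list (1.85 to 2.41 TPM in adipocytes, 35.8 to 46.0 TPM in preadipocytes) consisted almost wholly of Sox9, with Acan and Col2a1 at or near 0. The muscle list (48.3 to 55.1 TPM in adipocytes, 1.29 to 1.84 TPM in preadipocytes) was desmin, with Myod1, Myog and Myf5 at 0. Adipocyte library 2 had a larger share of nuclear ribosomal RNA (0.731%) than the other 5 (0.0428% to 0.0706%). Mitochondrial protein-coding genes took 7.10% to 7.53% of the counts in adipocyte libraries and 2.90% to 3.41% in preadipocyte libraries, and the 10 most abundant genes took 13.3% to 14.5% and 7.51% to 7.78% of the counts of these groups; their part in the changes below was not tested.

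Most of the Wnt genes that could be tested were lower in adipocytes. Of the 52 members, 48 had at least 1 count and 4 had none in any library: the antagonists Sfrp1, Dkk1 and Wif1 and the inhibitor Nkd1. A count of 0 over a group allows a level of up to 0.0443 CPM in adipocytes and 0.0383 CPM in preadipocytes (3 counts). The filter on low counts left 35 members to test. Of these, 24 (68.6%) were lower in adipocytes and 4 (11.4%) were higher at an adjusted p under 0.05 (edgeR quasi-likelihood fit, Benjamini-Hochberg over 14726 genes). Among all genes tested, 37.9% were lower and 35.7% higher, 73.5% in either direction. That split differed with the setting: 5252 genes were higher and 5575 lower with TMM, 3914 higher and 7481 lower with total counts, and 3266 higher and 8328 lower with limma on log2(TPM + 1), a fit that differs in unit and test as well; with total counts or that fit, 2 members were higher and 27 lower. The median log2 fold change was -0.88 over the 35 tested members and -0.06 over all tested genes. A fall of at least 2-fold was found for 17 members and a rise of that size for 1, against 21.8% and 19.3% of all tested genes. The TMM-scaled CPM (counts relative to library size) of the groups did not overlap for 28 of the 35, and for 76.5% of all tested genes. Of the tested members, Wnt2, Wnt9a, Wnt10a, Ror2 and Rspo2 reached the count minimum in the preadipocyte libraries alone, so they could pass the filter only by being lower. Among the other 30, 19 were lower and 4 higher. All 5 are also among the 17 falls of at least 2-fold and the 28 without overlap, and they enter the median. Those values were not computed again without the 5. The shares over all tested genes were not computed again without genes of this kind. With the replicate number as a block, 26 members were lower and 7 higher, beside 42.2% and 39.1% of all tested genes.

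**Figure D1:**
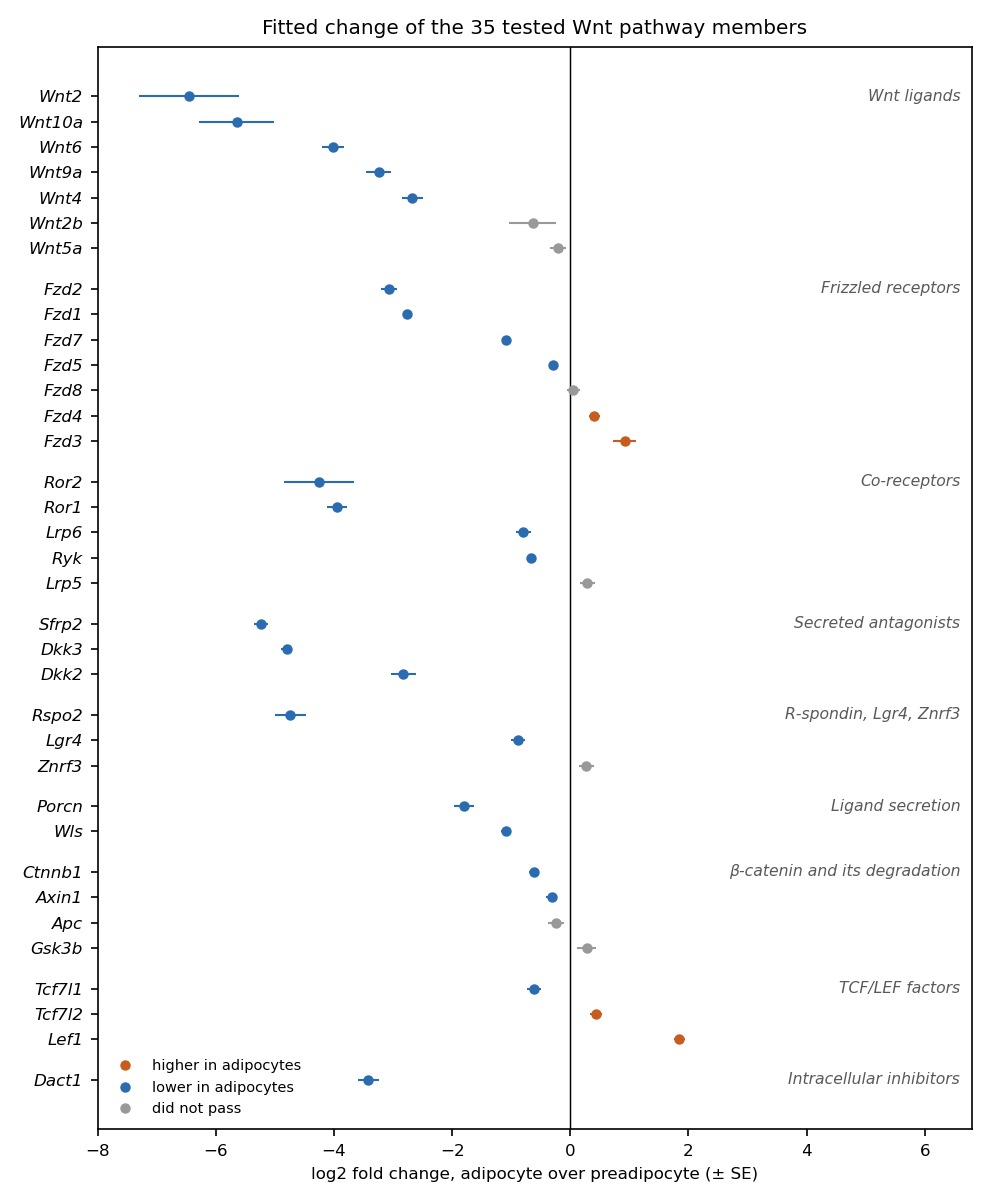
Fitted log2 fold change (x axis, adipocyte over preadipocyte, bars 1 SE) of the 35 tested members, grouped by role along the y axis; orange points were higher and blue points lower in adipocytes, and grey points did not pass. The 24 blue points run from Wnt2, at 0 counts in adipocytes, to Fzd5 at -0.28, and Lef1 at 1.84 lies farthest to the right.

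The members lie on 20 chromosomes. Wnt6 and Wnt10a are neighbours on chromosome 1, both on the plus strand with 6193 bases between them, and no other pair of members lies within 100 kb. RefSeq start windows (build GRCm38.p6) matched 35 of the 52 members, with 44 windows of 250 bases upstream of a start. The TCF/LEF core motif, searched as CTTTGAT or CTTTGTT on both strands, was present in 5 of the 44 member windows (11.4%) and in 8.06% of all 32851 windows. CTTTGAT alone was in 3.21% of all windows, CTTTGTT in 5.03% and the TATA motif TATAAA in 12.4%. The 5 windows belong to Dkk1, Fzd7, Wnt11 and internal starts of Wnt5b and Tcf7l2. Shown next are the regions of Sfrp2 and Wnt6, the antagonist and the ligand with the largest falls by the naming rule. Also shown are those of Fzd1 and Fzd7, receptors that both fell, and of Lef1, with the largest rise among tested members. Each is 5′ to 3′ on the gene's own strand and ends at the base before the RefSeq start, with motif matches in capitals.
Sfrp2 upstream region, chr3:83766071-83766320, + strand: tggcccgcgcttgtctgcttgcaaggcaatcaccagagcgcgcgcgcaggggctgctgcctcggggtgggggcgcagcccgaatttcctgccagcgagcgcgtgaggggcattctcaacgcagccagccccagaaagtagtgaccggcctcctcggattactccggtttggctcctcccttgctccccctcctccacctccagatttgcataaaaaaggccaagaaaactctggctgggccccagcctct
Wnt6 upstream region, chr1:74771642-74771891, + strand: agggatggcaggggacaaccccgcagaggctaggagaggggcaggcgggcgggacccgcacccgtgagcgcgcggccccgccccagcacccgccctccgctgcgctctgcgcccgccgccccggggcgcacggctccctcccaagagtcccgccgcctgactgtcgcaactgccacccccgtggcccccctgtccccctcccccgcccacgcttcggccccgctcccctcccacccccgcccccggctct
Fzd1 upstream region, chr5:4758217-4758466, - strand: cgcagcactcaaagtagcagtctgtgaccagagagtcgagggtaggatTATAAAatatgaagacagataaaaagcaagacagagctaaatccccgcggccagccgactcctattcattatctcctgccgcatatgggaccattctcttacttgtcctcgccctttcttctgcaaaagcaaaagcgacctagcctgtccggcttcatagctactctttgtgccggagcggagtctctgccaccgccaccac
Fzd7 upstream region, chr1:59481897-59482146, + strand: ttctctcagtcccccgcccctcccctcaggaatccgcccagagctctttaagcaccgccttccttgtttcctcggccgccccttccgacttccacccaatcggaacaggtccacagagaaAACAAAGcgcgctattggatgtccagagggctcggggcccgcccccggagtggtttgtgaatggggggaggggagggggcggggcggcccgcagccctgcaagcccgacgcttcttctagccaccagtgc
Lef1 upstream region, chr3:131110047-131110296, + strand: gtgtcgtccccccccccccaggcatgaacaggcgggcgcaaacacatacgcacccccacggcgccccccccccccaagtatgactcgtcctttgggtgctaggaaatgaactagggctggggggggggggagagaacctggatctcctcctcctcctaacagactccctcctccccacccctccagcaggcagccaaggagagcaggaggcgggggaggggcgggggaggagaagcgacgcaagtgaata
The capitals mark TATAAA in the Fzd1 region and AACAAAG, which is CTTTGTT read on the other strand, in the Fzd7 region. The Sfrp2, Wnt6 and Lef1 regions shown held none of these letters in capitals. Lef1 has other start windows, and the region shown is the one with the lowest coordinate. Another Lef1 window, chr3:131156044-131156293, held TATAAA and had a GC content of 44.8%. GC content was 79.6% in the Wnt6 region, 66.4% in that of Lef1, 65.2% in that of Fzd7, 63.6% in that of Sfrp2 and 51.2% in that of Fzd1.

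The summed TPM of the ligands was lower in adipocytes, and Wnt5a made up most of what remained. Of the 11 ligand genes 7 were tested; 5 were lower (Wnt2, Wnt4, Wnt6, Wnt9a and Wnt10a), none was higher, and Wnt2b and Wnt5a did not pass. Of the 5, Wnt2, Wnt9a and Wnt10a reached the count minimum in preadipocytes alone, so they could only come out lower. Of all tested genes, 37.9% were lower and 35.7% higher. Summed over the 11, ligand transcripts reached 14.3 ± 2.23 TPM in adipocytes and 40.5 ± 2.57 TPM in preadipocytes (SD, n = 3). Relative to TMM, log2 fold changes on log2(TPM + 1) shifted by a median of -0.48 over the tested genes. Falls in summed TPM, here and for the families below, are on that scale. No family sum was taken in TMM-scaled CPM. Wnt6 had 0.692, 0.981 and 0.519 CPM in the adipocyte libraries, against 12.1, 11.5 and 11.9 CPM in the preadipocyte libraries. The groups lay far apart, and every preadipocyte library was over 10 CPM. The fall in adipocytes was 16.2-fold (edgeR adjusted p = 1.55e-07 for a log2 fold change of -4.02, SE 0.19). Its gene body (chr1:74771892-74785322 on GRCm38) overlaps the antisense gene model Gm29539, and since no strand setting is stated, reads of the pair cannot be told apart. Wnt10a, its genomic neighbour, had 0, 0 and 1 counts in the adipocyte libraries, against 26, 19 and 33 counts in the preadipocyte libraries. A single adipocyte read thus stands against 78 preadipocyte reads, 67.3-fold (exact 95% Poisson interval 12.1 to 2658) lower in adipocytes, with edgeR adjusted p = 4.24e-05. The fitted log2 fold change of Wnt10a, -5.65, depends on the prior count and was -7.59 without adipocyte library 3, which held that read. Wnt10b, the best-known anti-adipogenic ligand, stayed under the count filter with 1, 0 and 0 counts in the adipocyte libraries, against 3, 9 and 16 counts in the preadipocyte libraries. Its preadipocyte libraries themselves ranged widely, and the lowest held 3 reads. The ratio of summed CPM was 24.2-fold (exact 95% Poisson interval 4.34 to 954) lower in adipocytes, and without the filter the gene passed (edgeR adjusted p = 0.00132).

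Wnt5a, a ligand mostly known for signalling without β-catenin, was the most abundant ligand gene in both states. It had 41.7, 57.4 and 48.7 CPM in the adipocyte libraries, against 49.5, 61.7 and 59.4 CPM in the preadipocyte libraries. The groups overlapped, since adipocyte library 2 was above preadipocyte library 1. The difference did not pass (edgeR adjusted p = 0.182 for a log2 fold change of -0.21, SE 0.13), but with the replicate number as a block it did, at -0.21 (edgeR adjusted p = 0.00413). It was also called lower with upper-quartile factors at -0.34 (edgeR adjusted p = 0.0429), with total counts at -0.54 (edgeR adjusted p = 0.00679), and with limma on log2(TPM + 1) at -0.70 and log2(TPM + 0.1) at -0.74 (adjusted p = 0.00267 and 0.00276). On the TPM scale Wnt5a averaged 12.9 ± 2.10 TPM in adipocytes and 21.5 ± 3.20 TPM in preadipocytes. It made up 90.1% ± 1.01 of the summed TPM in adipocytes and 53.1% ± 4.96 in preadipocytes, whereas Wnt6 made up 3.72% ± 1.14 of the summed TPM in adipocytes and 30.2% ± 3.49 in preadipocytes. Wnt4 had 0.908, 0.841 and 0.735 CPM in the adipocyte libraries, against 5.64, 5.41 and 4.86 CPM in the preadipocyte libraries. It was 6.37-fold lower in adipocytes with no overlap (edgeR adjusted p = 9.82e-07 for a log2 fold change of -2.67, SE 0.17). Wnt9a had 0.432, 0.420 and 0.346 CPM in the adipocyte libraries, against 4.19, 3.44 and 3.85 CPM in the preadipocyte libraries. All its adipocyte libraries lay under 0.5 CPM, and the fall was 9.47-fold (edgeR adjusted p = 1.02e-06 for a log2 fold change of -3.24, SE 0.21).

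The remaining ligands were near the limit of detection. Wnt2 had 0, 0 and 0 counts in the adipocyte libraries, against 11, 10 and 14 counts in the preadipocyte libraries. Set against a floor of 3 counts over the adipocyte group, it was at least 10.1-fold lower in adipocytes (edgeR adjusted p = 0.000392). Wnt2b had 0.605, 0.374 and 0.822 CPM in the adipocyte libraries, against 1.17, 0.514 and 1.13 CPM in the preadipocyte libraries. Its groups overlapped and the difference did not pass (log2 fold change -0.64, edgeR adjusted p = 0.177); leaving out preadipocyte library 2, the lowest of that group, brought it to -0.93 (edgeR adjusted p = 0.0496). Wnt5b was the ligand with the opposite order, at 4, 3 and 3 counts in the adipocyte libraries, against 0, 0 and 1 counts in the preadipocyte libraries. Summed CPM was 11.6-fold (exact 95% Poisson interval 2.08 to 458) higher in adipocytes, and the gene passed without the count filter (edgeR adjusted p = 0.0262). Its gene body overlaps the protein-coding gene Fbxl14, and since no strand setting is stated, reads of the pair cannot be told apart. Wnt11 had 4 counts over the adipocyte libraries and 3 over the preadipocyte libraries, and Wnt16 had 1 in each group, so neither difference was detectable at this depth. Intervals of this kind cover counting error only.

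**Figure D2:**
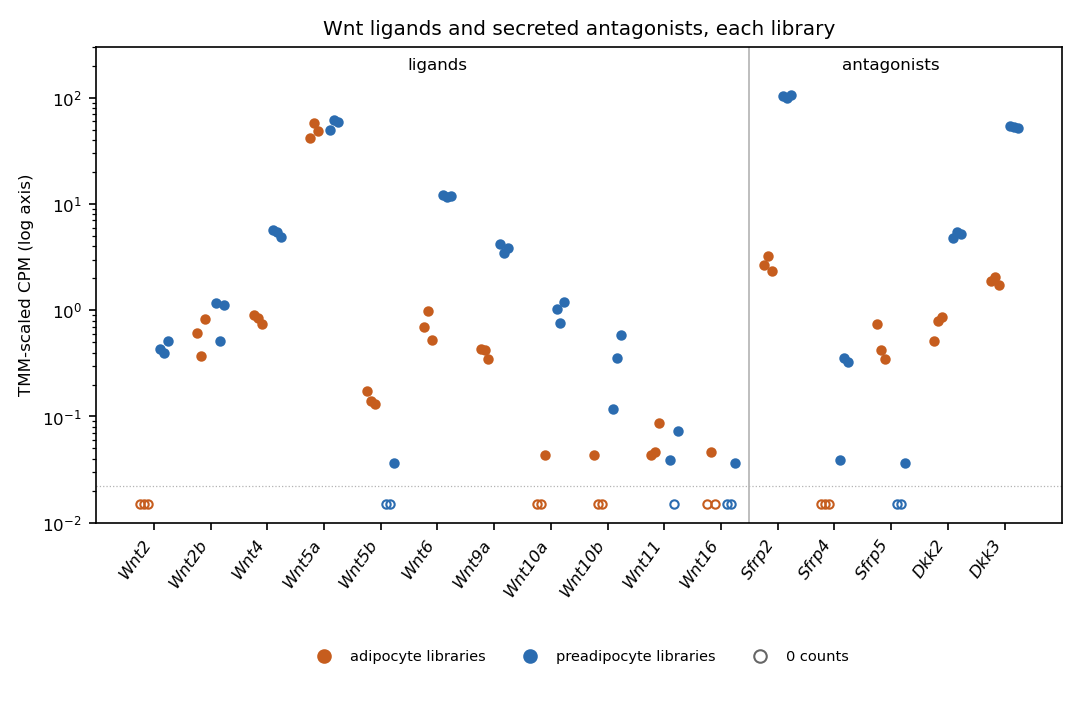
TMM-scaled CPM (y axis, log scale) of each ligand and each detected antagonist in every library, with adipocyte libraries on the left of each pair and preadipocyte libraries on the right; open circles under the dotted line are libraries with 0 counts. Wnt5a is the one ligand with both groups near 50 CPM, and Sfrp2 and Dkk3 lie under 4 CPM in adipocytes and over 50 CPM in preadipocytes.

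The antagonists Sfrp2, Dkk2 and Dkk3 were far lower in adipocytes. Proteins of this class keep Wnts from their receptors, either by binding the ligand (Sfrp family, Wif1) or by blocking Lrp5 and Lrp6 (Dkk1 and Dkk2). The 3 members tested were all lower, beside 37.9% of all tested genes. The 8 antagonist genes together summed to 3.49 ± 0.471 TPM in adipocytes and 139 ± 3.71 TPM in preadipocytes (SD, n = 3), 39.9 times as much in preadipocytes. Sfrp2 had 2.68, 3.27 and 2.34 CPM in the adipocyte libraries, against 104, 100.2 and 106 CPM in the preadipocyte libraries. No adipocyte library exceeded 4 CPM and no preadipocyte library was under 100. This 37.5-fold fall was the largest fitted one among members with at least 2 TPM (edgeR adjusted p = 3.23e-09 for a log2 fold change of -5.23, SE 0.12). The gene overlaps the antisense model Gm26771, whose reads cannot be told apart without strand. Dkk3, a Dickkopf relative that differs from the others in not being a clear Lrp blocker, had 1.90, 2.06 and 1.73 CPM in the adipocyte libraries, against 53.8, 52.7 and 52.3 CPM in the preadipocyte libraries. It was 27.9-fold lower in adipocytes, with very close values inside each group (edgeR adjusted p = 2.57e-09 for a log2 fold change of -4.80, SE 0.10). Dkk2 had 0.519, 0.794 and 0.865 CPM in the adipocyte libraries, against 4.78, 5.45 and 5.26 CPM in the preadipocyte libraries. The fall was 7.08-fold, again without overlap (edgeR adjusted p = 2.24e-06 for a log2 fold change of -2.82, SE 0.20). Sfrp4 had 0, 0 and 0 counts in the adipocyte libraries, against 1, 9 and 9 counts in the preadipocyte libraries, at least 5.46-fold lower in adipocytes against the floor of 3 counts.

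Sfrp5 ran the other way among the antagonists. This gene, described in mouse fat as an adipocyte product, had 17, 9 and 8 counts in the adipocyte libraries, against 0, 0 and 1 counts in the preadipocyte libraries. Every adipocyte library held more reads than any preadipocyte library. Summed CPM was 39.4-fold (exact 95% Poisson interval 7.07 to 1556) higher in adipocytes. The gene did not reach the count filter, and without that filter it passed (edgeR adjusted p = 3.68e-05). Its level stayed low, at 0.367 ± 0.144 TPM in adipocytes and 0.0133 ± 0.0231 TPM in preadipocytes, so that Sfrp2 was the leading antagonist of both states, at 2.10 ± 0.387 TPM in adipocytes and 106 ± 3.11 TPM in preadipocytes.

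Frizzled receptors changed in amount and in make-up. Of the 9 Frizzled genes 7 were tested. Fzd1, Fzd2, Fzd5 and Fzd7 were lower in adipocytes, Fzd3 and Fzd4 were higher, and Fzd8 did not pass. Of all tested genes, 37.9% were lower and 35.7% higher. The 9 genes summed to 63.6 ± 1.45 TPM in adipocytes and 358 ± 15.9 TPM in preadipocytes (SD, n = 3). Fzd1 had 79.4, 75.8 and 70.8 CPM in the adipocyte libraries, against 505, 502 and 522 CPM in the preadipocyte libraries. The 2 ranges were narrow and far apart. It was 6.77-fold lower in adipocytes (edgeR adjusted p = 8.69e-09 for a log2 fold change of -2.76, SE 0.08). Fzd2 had 20.2, 16.0 and 14.4 CPM in the adipocyte libraries, against 150.2, 130.0 and 143 CPM in the preadipocyte libraries. Its fall was 8.37-fold, with no overlap (edgeR adjusted p = 7.99e-08 for a log2 fold change of -3.06, SE 0.13). Fzd7 had 20.4, 19.2 and 18.9 CPM in the adipocyte libraries, against 39.8, 40.9 and 43.5 CPM in the preadipocyte libraries. It fell 2.12-fold (log2 fold change -1.08, edgeR adjusted p = 2.46e-06). Fzd5 had 26.3, 29.8 and 26.3 CPM in the adipocyte libraries, against 33.0, 33.6 and 33.7 CPM in the preadipocyte libraries, a small fall (log2 fold change -0.28, edgeR adjusted p = 0.0112) that was lost without adipocyte library 3 (-0.20, edgeR adjusted p = 0.0764), without the low-count filter (-0.22, edgeR adjusted p = 0.111) and with DESeq2 (-0.23, adjusted p = 0.0539).

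Fzd4, a receptor that also binds the non-Wnt ligand norrin, had 81.3, 98.9 and 96.4 CPM in the adipocyte libraries, against 65.2, 71.8 and 71.3 CPM in the preadipocyte libraries. All adipocyte libraries were above all preadipocyte libraries on this scale. It rose 1.33-fold (edgeR adjusted p = 0.00350 for a log2 fold change of 0.41, SE 0.09), but scaling by total counts reduced the log2 fold change to 0.08 and on log2(TPM + 1) the direction turned to -0.11, neither of which passed. The sign was positive under all 4 scalings of the counts and turned in the TPM fits alone, which differ in unit and test as well. Fzd3, named here after its values were seen because it lies under the 2 TPM asked of named genes, had 9.51, 12.1 and 13.6 CPM in the adipocyte libraries, against 4.78, 7.62 and 6.24 CPM in the preadipocyte libraries. Its 1.89-fold rise held the same call in every alternative tried (edgeR adjusted p = 0.00241 for a log2 fold change of 0.92, SE 0.20). Fzd8 had 14.0 ± 1.56 CPM in adipocytes and 13.5 ± 0.692 CPM in preadipocytes (SD, n = 3), with overlapping libraries; its log2 fold change of 0.05 turned to -0.08 with upper-quartile factors and to -0.28 with total-count scaling, where it was called lower (edgeR adjusted p = 0.0422), as it was with limma on log2(TPM + 1) and log2(TPM + 0.1) (adjusted p = 0.0133 and 0.0201). Fzd6 had 0 counts in adipocytes and 1 in preadipocytes. Fzd9 had 1, 0 and 0 counts in the adipocyte libraries, against 2, 4 and 4 counts in the preadipocyte libraries, and summed CPM was 8.63-fold (exact 95% Poisson interval 1.55 to 341) lower in adipocytes without passing when the filter was lifted (edgeR adjusted p = 0.0736).

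Shares within the family do not depend on how libraries are scaled to each other. Fzd1 made up 37.5% ± 1.48 of the summed TPM in adipocytes and 64.9% ± 0.631 in preadipocytes. Fzd2 made up 9.67% ± 1.59 of the summed TPM in adipocytes and 20.7% ± 1.24 in preadipocytes. Fzd4 made up 28.3% ± 3.14 of the summed TPM in adipocytes and 5.44% ± 0.326 in preadipocytes, so that it took the second place in adipocytes, which Fzd2 held in preadipocytes. The ratio of Fzd1 to Fzd4 TPM was 1.59, 1.25 and 1.19 in the adipocyte libraries, against 12.6, 11.4 and 11.9 in the preadipocyte libraries, with no overlap between the groups. In adipocytes the order by mean TPM was Fzd1 (23.8), Fzd4 (18.0), Fzd2 (6.14), Fzd7 (5.71), Fzd5 (5.39), Fzd8 (3.06) and Fzd3 (1.45). Fzd2, Fzd7 and Fzd5 lay within 1 SD of Fzd2 (0.935 TPM) of one another. In preadipocytes the order was Fzd1 (232 TPM), Fzd2 (74.0), Fzd4 (19.5), Fzd7 (17.4), Fzd5 (9.32), Fzd8 (4.26) and Fzd3 (0.910).

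**Figure D3:**
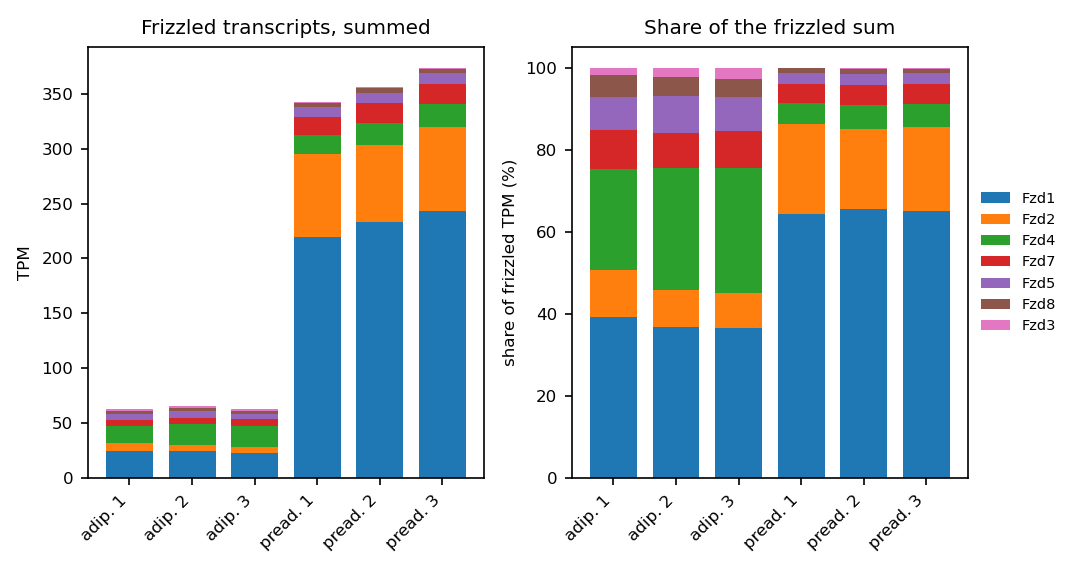
Stacked TPM of 7 Frizzled genes in each library (left panel) and each gene's share of the Frizzled sum in percent (right panel), adipocyte libraries left of preadipocyte libraries; each bar is 1 library. The summed level is 62.5 to 65.2 TPM in adipocytes and 342 to 374 TPM in preadipocytes, and the Fzd4 share is wider in every adipocyte bar.

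Of the co-receptors, Lrp6 was lower and Lrp5 did not pass. These related proteins both pair with Frizzled in the β-catenin branch. Lrp6 had 201, 239 and 270.5 CPM in the adipocyte libraries, against 358, 446 and 426 CPM in the preadipocyte libraries. The groups did not overlap, and the fall was 1.73-fold (edgeR adjusted p = 0.000421 for a log2 fold change of -0.79, SE 0.13). Lrp5 had 331, 243 and 254 CPM in the adipocyte libraries, against 248, 208 and 222 CPM in the preadipocyte libraries. Preadipocyte library 1 lay between the adipocyte libraries, and the difference did not pass (edgeR adjusted p = 0.0705 for a log2 fold change of 0.29, SE 0.13). With the replicate number as a block it did pass at 0.28 (edgeR adjusted p = 0.000730), as it did without adipocyte library 2 (0.41), adipocyte library 3 (0.41) or preadipocyte library 1 (0.36), and with RLE factors (0.35), without the low-count filter (0.36) and with DESeq2 (0.35), while total-count scaling (-0.04) and limma on log2(TPM + 1) (-0.24) turned the sign without a call. Inside each library the ratio of Lrp6 to Lrp5 TPM was 0.382, 0.619 and 0.661 in the adipocyte libraries, against 0.893, 1.29 and 1.17 in the preadipocyte libraries. Every adipocyte ratio was under every preadipocyte ratio.

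Ror1, Ror2 and Ryk, receptors of β-catenin-independent branches, were all lower. Ror1, a receptor tyrosine kinase that binds Wnt5a, had 1.17, 1.12 and 0.865 CPM in the adipocyte libraries, against 14.1, 17.9 and 16.8 CPM in the preadipocyte libraries. It fell 15.4-fold with no overlap (edgeR adjusted p = 8.02e-08 for a log2 fold change of -3.94, SE 0.17). Its relative Ror2, named after its values were seen, had 2, 2 and 0 counts in the adipocyte libraries, against 35, 39 and 21 counts in the preadipocyte libraries (log2 fold change -4.25, edgeR adjusted p = 0.000174). The fitted value was -3.63 without adipocyte library 3, the library with no reads. Ror2 reached the count minimum in preadipocytes alone, so it could pass the filter only by being lower. Ryk had 72.8, 74.4 and 72.0 CPM in the adipocyte libraries, against 111, 115 and 119 CPM in the preadipocyte libraries and was 1.58-fold lower (log2 fold change -0.66, edgeR adjusted p = 2.18e-05).

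R-spondins amplify Wnt signals by binding Lgr receptors and removing the ubiquitin ligase Znrf3, which otherwise clears Frizzled from the cell surface. Rspo2 had 0.0865, 0.187 and 0.173 CPM in the adipocyte libraries, against 3.99, 4.38 and 3.85 CPM in the preadipocyte libraries. It was 26.6-fold lower in adipocytes (edgeR adjusted p = 3.77e-07 for a log2 fold change of -4.74, SE 0.26), from 10 reads over the adipocyte group and 319 over the preadipocyte group. Rspo2 reached the count minimum in preadipocytes alone, so it could pass the filter only by being lower. Rspo3 had 0, 2 and 1 counts in the adipocyte libraries, against 7, 5 and 8 counts in the preadipocyte libraries, a ratio of 5.75-fold (exact 95% Poisson interval 1.97 to 27.9) lower in adipocytes that passed when the filter was lifted (edgeR adjusted p = 0.0228). Rspo1 had 4 counts in adipocytes and 1 in preadipocytes. Lgr4, the receptor, had 66.9, 86.0 and 86.3 CPM in the adipocyte libraries, against 131, 158 and 151 CPM in the preadipocyte libraries and fell 1.84-fold (log2 fold change -0.88, edgeR adjusted p = 0.000138). Znrf3 had 12.1, 13.1 and 15.2 CPM in the adipocyte libraries, against 9.90, 12.5 and 11.1 CPM in the preadipocyte libraries. Its groups overlapped and it did not pass (log2 fold change 0.27, edgeR adjusted p = 0.0880), whereas the replicate block gave 0.28 with edgeR adjusted p = 0.0212, leaving out adipocyte library 1 gave 0.36 with 0.0320, and total-count scaling gave -0.05. It also passed with RLE factors (0.33) and DESeq2 (0.33).

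Both genes of the ligand export route were lower. Porcn, the acyltransferase that attaches the lipid to Wnt proteins, had 14.7, 11.0 and 9.99 CPM in the adipocyte libraries, against 48.5, 37.5 and 38.2 CPM in the preadipocyte libraries. No adipocyte library reached the preadipocyte range, and the fall was 3.48-fold (edgeR adjusted p = 1.02e-05 for a log2 fold change of -1.80, SE 0.16). Wls, which carries the lipid-modified ligand to the surface, had 128, 146 and 145 CPM in the adipocyte libraries, against 287, 313 and 291 CPM in the preadipocyte libraries. It fell 2.12-fold, also without overlap (edgeR adjusted p = 3.14e-06 for a log2 fold change of -1.08, SE 0.08).

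Inside the cell, Ctnnb1 and Axin1 were lower, and Gsk3b and Apc did not pass. Ctnnb1, the gene of β-catenin, had 336, 319 and 319 CPM in the adipocyte libraries, against 513, 489 and 496 CPM in the preadipocyte libraries. Each group was tight, and the fall was 1.54-fold (edgeR adjusted p = 4.31e-05 for a log2 fold change of -0.62, SE 0.07). On the TPM scale it averaged 137 ± 6.35 TPM in adipocytes and 316 ± 4.16 TPM in preadipocytes, and the limma log2 fold change on log2(TPM + 1) was -1.20. It remained the most abundant of the 5 destruction-complex and β-catenin genes by TPM, with 66.6% ± 1.12 of the summed TPM in adipocytes and 76.6% ± 1.74 in preadipocytes. Axin1, the scaffold of the complex, had 61.5, 53.3 and 51.3 CPM in the adipocyte libraries, against 74.1, 66.4 and 66.2 CPM in the preadipocyte libraries. Its fall (log2 fold change -0.31, edgeR adjusted p = 0.0137) was lost without adipocyte library 2 (edgeR adjusted p = 0.127) or adipocyte library 3 (-0.20, edgeR adjusted p = 0.113), with RLE scaling (edgeR adjusted p = 0.0511) and without the low-count filter (edgeR adjusted p = 0.0775). Gsk3b, the kinase that marks β-catenin for removal, had 135, 181 and 194 CPM in the adipocyte libraries, against 114, 156 and 150.1 CPM in the preadipocyte libraries, overlapping groups that did not pass (log2 fold change 0.28, edgeR adjusted p = 0.141). With the replicate block Gsk3b passed at 0.28 (edgeR adjusted p = 0.000325), as it did without adipocyte library 1 at 0.43, without the low-count filter at 0.34 and with DESeq2 at 0.33; total-count scaling turned it to -0.05. Apc had 61.6, 66.4 and 82.4 CPM in the adipocyte libraries, against 70.5, 88.5 and 89.9 CPM in the preadipocyte libraries. It did not pass (log2 fold change -0.24, edgeR adjusted p = 0.129), but passed with the block at -0.24 (edgeR adjusted p = 0.00241), without adipocyte library 3 at -0.32 and without preadipocyte library 1 at -0.35. Apc was also called lower with upper-quartile factors (-0.38), total counts (-0.57) and limma on log2(TPM + 1) (-0.63).

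Axin2, the scaffold gene that is also the most widely used readout of β-catenin signalling, was almost unread in both states. It had 0, 0 and 3 counts in the adipocyte libraries, against 0, 0 and 0 counts in the preadipocyte libraries. All 3 reads came from adipocyte library 3, and the difference was not detectable at this depth. Nkd1 and Nkd2, feedback inhibitors acting on Dishevelled, had no counts and 1 count over all 6 libraries. Dact1, another Dishevelled-binding inhibitor, had 0.908, 1.26 and 0.909 CPM in the adipocyte libraries, against 9.82, 12.4 and 10.7 CPM in the preadipocyte libraries. It was 10.7-fold lower in adipocytes, with every adipocyte library under 2 CPM (edgeR adjusted p = 2.83e-07 for a log2 fold change of -3.42, SE 0.18).

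The TCF/LEF factors, which carry β-catenin on DNA, held 2 of the 4 rises. Lef1 had 34.5, 33.6 and 35.8 CPM in the adipocyte libraries, against 8.81, 10.2 and 9.95 CPM in the preadipocyte libraries. The adipocyte libraries were all over 30 CPM, and no preadipocyte library reached 11. The 3.59-fold rise was the largest among the tested members (edgeR adjusted p = 1.87e-07 for a log2 fold change of 1.84, SE 0.09). Lef1 overlaps the antisense model Gm43352, and reads of the pair cannot be told apart. Tcf7l2 had 52.9, 63.1 and 60.1 CPM in the adipocyte libraries, against 39.1, 47.1 and 44.8 CPM in the preadipocyte libraries. It was 1.34-fold higher with no overlap (edgeR adjusted p = 0.00424 for a log2 fold change of 0.43, SE 0.10), but on total-count scaling the value was 0.10 and on log2(TPM + 1) 0.02, neither past the threshold. Tcf7l1, mostly known as a repressor, had 166, 135 and 131 CPM in the adipocyte libraries, against 243, 198 and 219 CPM in the preadipocyte libraries. It fell 1.53-fold (log2 fold change -0.61, edgeR adjusted p = 0.00120) and was still the most abundant factor, with 63.8% ± 3.91 of the summed TPM in adipocytes and 82.7% ± 2.18 in preadipocytes. Tcf7 stayed under the filter at 7, 5 and 6 counts in the adipocyte libraries, against 2, 0 and 1 counts in the preadipocyte libraries, 6.95-fold (exact 95% Poisson interval 2.38 to 33.7) higher in adipocytes and passing without the filter (edgeR adjusted p = 0.00839).

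Within single libraries the balance of these factors differed as well. Tcf7l1 TPM divided by Lef1 TPM was 6.23, 5.17 and 4.55 in the adipocyte libraries, against 30.6, 23.1 and 29.0 in the preadipocyte libraries. Tcf7l1 divided by Tcf7l2 was 3.28, 2.53 and 2.32 in the adipocyte libraries, against 7.02, 5.12 and 5.60 in the preadipocyte libraries. Neither ratio overlapped between the groups.

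**Figure D4:**
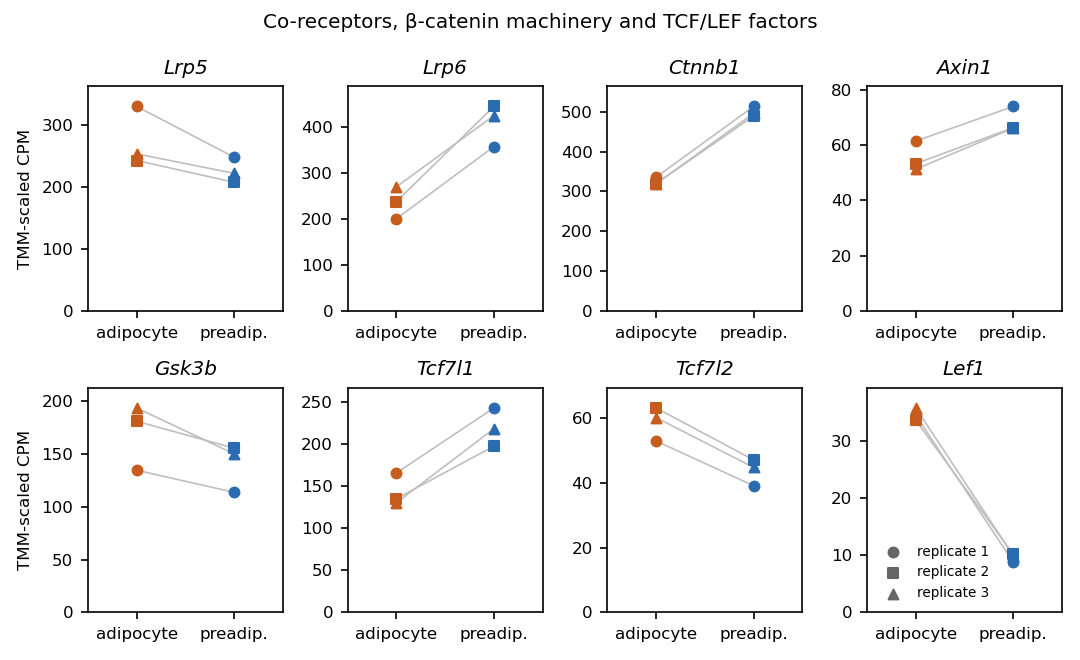
TMM-scaled CPM (y axes, from 0) of 8 co-receptor, β-catenin machinery and TCF/LEF genes, adipocyte libraries left and preadipocyte libraries right, with lines joining libraries that share a replicate number. Lines for Lrp6, Ctnnb1, Axin1 and Tcf7l1 are lower on the adipocyte side, those for Lef1 and Tcf7l2 are higher there, and Lrp5 and Gsk3b have overlapping groups in which each numbered pair has the higher value in adipocytes.

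Other genes of the pathway moved in both directions. A list of 81 such genes outside the module held 54 that were tested, of which 29 (53.7%) were lower, 14 (25.9%) higher and 11 not past the threshold, beside 37.9% lower and 35.7% higher among all tested genes. The median log2 fold change was -0.35. Draxin had 3, 5 and 2 counts in the adipocyte libraries, against 33, 35 and 32 in the preadipocyte libraries. It reached the count minimum in preadipocytes alone, so it could only come out lower. Celsr3, called higher, reached the minimum in every adipocyte library (19, 22 and 25 counts) but not in every preadipocyte library (5, 7 and 12). The shares were not computed again without such genes. Limma on log2(TPM + 1) called 38 lower and 6 higher, beside 8328 lower and 3266 higher among all 14726 genes in that fit. Of the 81, 10 had no counts at all (Wnt1, Wnt3, Wnt3a, Wnt8a, Fzd10, Dkk4, Sost, Sostdc1, Frzb and Celsr1). Among the largest falls, Tpbg, a membrane glycoprotein, had 1.43, 1.92 and 1.38 CPM in the adipocyte libraries, against 55.6, 51.9 and 60.0 CPM in the preadipocyte libraries. It was 35.5-fold lower (log2 fold change -5.15, edgeR adjusted p = 5.47e-09). Tle2, a Groucho corepressor that binds TCF/LEF factors, had 7.74, 8.03 and 7.40 CPM in the adipocyte libraries, against 112, 83.3 and 85.9 CPM in the preadipocyte libraries. Its fall was 12.1-fold (log2 fold change -3.60, edgeR adjusted p = 3.63e-08). Vangl2, of the planar cell polarity branch, fell 6.57-fold (log2 fold change -2.72, edgeR adjusted p = 7.15e-07) and Dact3, a relative of Dact1, fell 6.03-fold (log2 fold change -2.59, edgeR adjusted p = 4.23e-06).

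Among the rises, Hipk2, a nuclear kinase, had 441, 474 and 519.9 CPM in the adipocyte libraries, against 35.3, 41.8 and 43.6 CPM in the preadipocyte libraries. It was 11.9-fold higher in adipocytes (log2 fold change 3.57, edgeR adjusted p = 1.36e-08). Nlk, a kinase that acts on TCF/LEF factors, had 40.6, 44.6 and 47.5 CPM in the adipocyte libraries, against 11.1, 12.6 and 13.1 CPM in the preadipocyte libraries. It rose 3.60-fold (log2 fold change 1.85, edgeR adjusted p = 3.28e-07). Apcdd1, a membrane inhibitor of Wnt signalling, rose 5.65-fold (log2 fold change 2.50, edgeR adjusted p = 7.67e-08), and Tle1, the Groucho relative of Tle2, rose 2.21-fold (log2 fold change 1.15, edgeR adjusted p = 6.24e-06). The Dishevelled genes, chosen after their values were seen, differed among themselves. Dvl1 had 115, 94.7 and 96.9 CPM in the adipocyte libraries, against 65.4, 52.5 and 53.6 CPM in the preadipocyte libraries. Dvl2 had 31.5, 33.1 and 29.9 CPM in the adipocyte libraries, against 74.6, 67.5 and 63.4 CPM in the preadipocyte libraries. Dvl1 was 1.79-fold higher (log2 fold change 0.84, edgeR adjusted p = 0.000150) and Dvl2 2.17-fold lower (log2 fold change -1.12, edgeR adjusted p = 4.06e-06), and the ratio of Dvl2 to Dvl1 TPM was 0.261, 0.353 and 0.267 in the adipocyte libraries, against 1.02, 1.14 and 1.17 in the preadipocyte libraries.

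A list of 20 genes often given as TCF/LEF targets in some cell type was read beside the pathway. Of the 20, 12 were tested, 8 (66.7%) were lower, 3 (25.0%) were higher and Znrf3 did not pass, beside 37.9% lower and 35.7% higher among all tested genes. Leaving out the 5 that are module members, 10 of 15 were tested, 8 were lower and 2 higher, with a median log2 fold change of -2.29. Ccnd1, the gene of cyclin D1, had 13.8, 12.6 and 10.5 CPM in the adipocyte libraries, against 255, 244 and 257 CPM in the preadipocyte libraries. It was 20.5-fold lower in adipocytes (log2 fold change -4.36, edgeR adjusted p = 5.22e-09). Ccn4 and Ccn5, matricellular proteins once named Wisp1 and Wisp2, fell 15.9-fold (log2 fold change -3.99, edgeR adjusted p = 6.46e-09) and 13.2-fold (log2 fold change -3.72, edgeR adjusted p = 1.17e-07). Id2, an inhibitor of helix-loop-helix factors, had 0.994, 1.17 and 1.04 CPM in the adipocyte libraries, against 15.0, 15.5 and 13.6 CPM in the preadipocyte libraries. Its fall was 13.7-fold (log2 fold change -3.78, edgeR adjusted p = 3.45e-08). Against these, Myc had 34.9, 31.9 and 31.3 CPM in the adipocyte libraries, against 9.79, 6.83 and 8.02 CPM in the preadipocyte libraries. It rose 3.98-fold (log2 fold change 1.99, edgeR adjusted p = 1.31e-06), and Apcdd1 and Lef1, described above, were the other two rises. These genes have many regulators besides TCF/LEF, and which of them acted was not tested.

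Small changes in this module depended on how the libraries were scaled. Relative to the fit with TMM, the log2 fold changes of single genes shifted by a median of -0.33 with total-count scaling, -0.13 with upper-quartile factors and 0.06 with RLE factors. With limma on log2(TPM + 1), which also changes unit and test, the median shift was -0.48. With RLE factors 23 members were lower and 6 higher, beside 5332 lower and 5500 higher among all 14726 genes tested. Of the 28 members called, 24 kept both direction and call in all 14 alternatives, 22 of them lower and 2 higher (Lef1 and Fzd3). The other 4 were Fzd4, Fzd5, Axin1 and Tcf7l2.

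**Figure D5:**
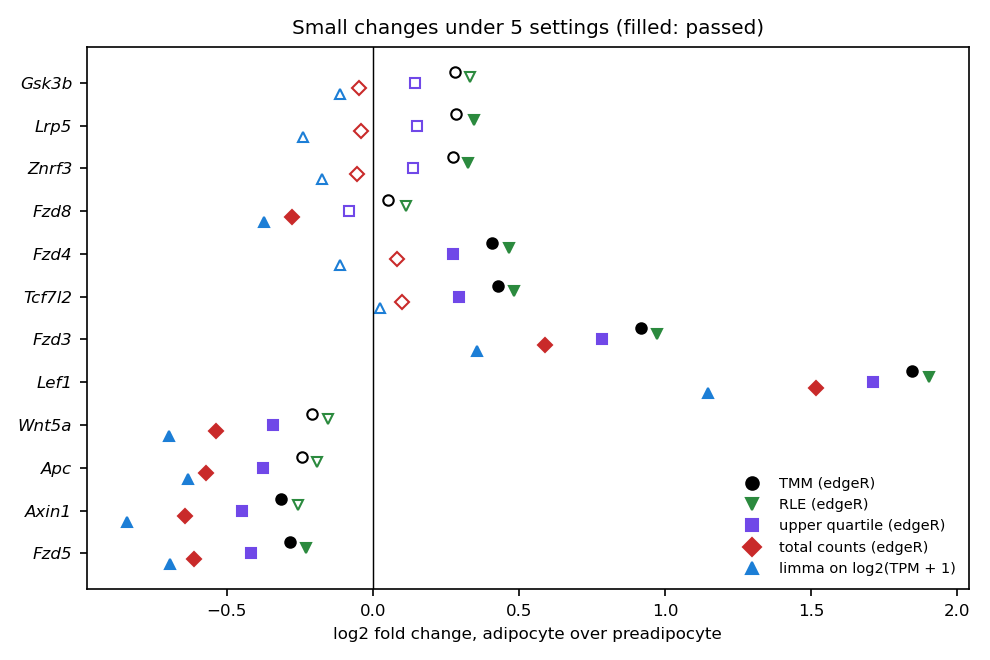
Log2 fold change (adipocyte over preadipocyte) of members with small or scaling-dependent changes under 5 settings; filled symbols passed the test and open ones did not. The values of Fzd4, Fzd8, Lrp5, Gsk3b and Znrf3 lie above 0 with TMM and below 0 on the log2(TPM + 1) scale, while Lef1 stays above 0 throughout.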

How the data were processed

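RNA from 3 adipocyte and 3 preadipocyte libraries was sequenced after phenol-chloroform extraction, per the labels' protocols. The authors deposited 1 gene table per library with RSEM expected counts and TPM, per the file headers; FPKM was not used. RSEM, Bowtie, Bowtie2, DESeq2 and GRCm38/mm10 are named in the submitters' processing notes; the sources used here do not give their roles, versions or strand setting. Of 54752 gene IDs, 54723 matched GENCODE M21. Totals of 22496486 to 26314076 counts per library set the precision. For 26 members another gene model overlaps, so reads could be shared.

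Expected counts were rounded to whole numbers and tested with edgeR 4.0.16 (R 4.3.3; filterByExpr with a minimum of 10 counts, TMM, glmQLFit, glmQLFTest), Benjamini-Hochberg at 0.05, with group as the only term. CPM is TMM-scaled. Alternatives were RLE, upper-quartile and total-count scaling, no filter, the replicate number as a block, each library left out, DESeq2 1.42.0, and limma 3.58.1 on log2(TPM + 1) and log2(TPM + 0.1). Same-numbered libraries deviated together (r = 0.659, 0.301 and 0.265, all over the limit of 0.1), so the block is given beside results it changes; adipocyte library 3 deviated more with preadipocyte library 2 (r = 0.446), and the labels state no pairing. No pair of libraries was identical. The counts of preadipocyte libraries 2 and 3 were the closest, with a chi-square per degree of freedom of 2.96. Other pairs within a group had 15.5 to 38.6. Whether these 2 libraries came from separate cultures is not stated. The code was tested on simulated data with 200 changed genes, of which 14415 genes in all were tested. It recovered 133 of 150 changes of 2-fold or more, with 10 false calls. Far fewer genes changed there than were called here, so that run does not test the scaling.

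Named members passed the threshold with at least 2 TPM in the higher group (12 largest changes each way), plus 10 of prior interest in adipogenesis; of the pathway and target lists, the 4 largest each way. Members and lists were chosen with earlier results of these data known. Ratios with 0 to 3 counts in a group used a floor of 3 counts or exact 95% Poisson intervals.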

Additional observations from a re-analysis of the deposited data

How the results depend on the processing

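Members higher in adipocytes numbered 4 with the settings of the report, 2 with total-count scaling, 2 with limma on log2(TPM + 1) and 2 on log2(TPM + 0.1). They numbered 9 without the low-count filter, 7 with the replicate block and 7 with DESeq2. Members lower stayed between 23 and 27 in all alternatives. Without the filter 48 members and 26772 genes were tested, and 6073 of these genes were higher and 5733 lower. Of 14726 genes, 5763 were higher and 6212 lower with the block, and 5411 and 5163 with DESeq2. Total-count scaling gave 3914 higher and 7481 lower. Leaving out 1 library gave 4 to 6 higher and 23 to 25 lower, beside 4929 to 5466 and 5120 to 5606 of all genes tested. With limma on the 2 TPM scales, 3266 and 3248 of all genes were higher and 8328 and 8309 lower, beside 5252 and 5575 with edgeR. Of the other pathway genes 6 and 6 were higher, beside 14, and 38 and 38 lower, beside 29. Among genes called in at least 1 of the fits compared, directions turned under total counts for Fzd8 (-0.28), Csnk1d (-0.065) and Bcl9l (-0.28). On log2(TPM + 1) and log2(TPM + 0.1) they turned for Fzd4 (-0.11 and -0.12), Fzd8 (-0.37 and -0.46), Csnk1d (-0.22 and -0.23), Csnk1e (-0.052 and -0.053), Bcl9l (-0.47 and -0.48) and Nfatc3 (-0.005 and -0.005). Lrp5, Gsk3b and Znrf3, called in none of those fits, also turned under total counts and on both TPM scales (-0.24 to -0.04), as did some uncalled genes of the pathway list. The cause was not tested. The replicate block moved 5 members past the threshold (Wnt5a, Apc, Lrp5, Gsk3b and Znrf3) and lost no member's call. Depth limited the 13 detected members that were not tested, with at most 35 counts over 6 libraries.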
